A study of Mus musculus with 29 samples.

Results

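The genes described here encode apolipoproteins and the proteins that load lipid onto them, remodel the particles or take them up: Apoe, Clu, Apod, Abca1, Abca7, Abcg1, Lcat, Pltp, Lrp1 and Vldlr. They were found by gene symbol, and all 10 were present on 1 row each among the 36172 gene rows of the count table. The 29 libraries were those of whole tissue and of TRAP fractions with their input. In TRAP, the ribosomal protein L10a bears an EGFP tag in the cells with active Cre, and anti-GFP antibody on beads then captures their ribosomes from homogenised brain. The negative and positive fractions of 3 Aldh1l1-Cre/Ert2+; NuTRAP+ mice (290, 293 and 294) were sequenced, and the same fractions plus input were sequenced for 6 Cx3cr1-Cre/Ert2+; NuTRAP+ mice (155, 192, 194, 209, 210 and 277). Whole tissue was sequenced from 5 of the Cx3cr1-NuTRAP mice, all but mouse 155. Input is the cleared homogenate, the negative fraction is what stayed unbound, the positive fraction is what the beads held, and whole tissue is conventionally isolated brain RNA. All mice carried the NuTRAP allele and a tamoxifen-inducible Cre, and all received tamoxifen at 100 mg/kg on 5 days at about 3 months of age. The Aldh1l1 promoter directs Cre to astrocytes. The Cx3cr1 promoter directs it to microglia and other Cx3cr1-expressing macrophages. Males and females were used, and the labels do not give the sex of each mouse. For the Aldh1l1-NuTRAP mice, neither input nor tissue RNA is analysed here. The comparisons ask how far the RNA on tagged ribosomes of each cell type differs from the RNA around it. Cell type and mouse line cannot be told apart in any comparison of the lines. The paper describes a longer wait from tamoxifen to collection for Cx3cr1-NuTRAP brain than for the Aldh1l1-NuTRAP brains of its cytometry and histology. The wait for the Aldh1l1-NuTRAP TRAP libraries is not given there, and a difference in it could not be told apart from line.

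In the brain, cholesterol and phospholipid move between cells on small lipoprotein particles that astrocytes secrete. Apolipoprotein E (Apoe), clusterin (Clu, also called apolipoprotein J) and apolipoprotein D (Apod) are protein components or carriers of such lipid. The ABC transporters Abca1 and Abcg1 export cholesterol to the particles, and Abca7 is a related phospholipid exporter that is also known for a part in phagocytosis. Lcat esterifies cholesterol on the particle, and Pltp transfers phospholipid between particles. Lrp1 and Vldlr are receptors of the LDL receptor family that take up apolipoprotein E-bearing particles, and Vldlr is also a receptor for reelin.

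The genes lie on 9 chromosomes of mm10, in the positions the count table gives. Apoe spans chr7:19696244-19699166 on the minus strand, Clu chr14:65968483-65981545 on the plus strand and Apod chr16:31296192-31314596 on the minus strand. Abca1 spans chr4:53030789-53159895 (minus), Abca7 chr10:79997615-80015572 (plus) and Abcg1 chr17:31057694-31117981 (plus). Lcat spans chr8:105939551-105943402 (minus) and Pltp chr2:164839518-164857708 (minus). Lrp1 spans chr10:127538158-127621148 (minus) and Vldlr chr19:27217020-27254231 (plus). No exon of another gene on the same strand overlaps theirs in the GENCODE annotation. Summed exon length ranged from 1342 bases in Lcat to 16305 bases in Lrp1.

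Promoter windows of RefSeq on GRCm38.p6, the patched mm10 assembly, were matched for 8 of the 10 genes. Those of 4 genes that were higher in the astrocyte pulldown and 1 that was lower are printed because these genes are among the 7 that changed in that pulldown. Each sequence holds the 250 bases before the start site, 5′ to 3′ on the gene's strand. Capitals mark matches to the 6 motifs searched on both strands.
Apoe, chr7:19699189-19699438, minus strand: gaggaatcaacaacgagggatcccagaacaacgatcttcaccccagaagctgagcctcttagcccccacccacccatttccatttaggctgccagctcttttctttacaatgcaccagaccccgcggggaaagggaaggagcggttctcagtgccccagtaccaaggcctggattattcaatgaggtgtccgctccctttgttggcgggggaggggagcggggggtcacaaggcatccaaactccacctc
Lcat, chr8:105943403-105943652, minus strand: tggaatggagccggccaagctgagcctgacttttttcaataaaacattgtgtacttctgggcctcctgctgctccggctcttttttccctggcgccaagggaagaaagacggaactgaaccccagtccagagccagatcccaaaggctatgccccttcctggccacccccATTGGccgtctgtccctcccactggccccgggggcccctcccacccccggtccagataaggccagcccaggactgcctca
Abca1, chr4:53159896-53160145, minus strand: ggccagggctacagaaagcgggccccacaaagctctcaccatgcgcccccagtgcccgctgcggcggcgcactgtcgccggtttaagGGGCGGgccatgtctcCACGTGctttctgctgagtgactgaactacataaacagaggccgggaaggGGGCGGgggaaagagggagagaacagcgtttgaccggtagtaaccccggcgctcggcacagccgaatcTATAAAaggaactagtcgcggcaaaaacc
Pltp, chr2:164857709-164857958, minus strand: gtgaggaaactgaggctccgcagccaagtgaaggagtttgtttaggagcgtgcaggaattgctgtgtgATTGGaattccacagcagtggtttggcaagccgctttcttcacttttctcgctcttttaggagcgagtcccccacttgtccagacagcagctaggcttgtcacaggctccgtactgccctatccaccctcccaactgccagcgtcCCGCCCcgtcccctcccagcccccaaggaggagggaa
Vldlr, chr19:27216770-27217019, plus strand: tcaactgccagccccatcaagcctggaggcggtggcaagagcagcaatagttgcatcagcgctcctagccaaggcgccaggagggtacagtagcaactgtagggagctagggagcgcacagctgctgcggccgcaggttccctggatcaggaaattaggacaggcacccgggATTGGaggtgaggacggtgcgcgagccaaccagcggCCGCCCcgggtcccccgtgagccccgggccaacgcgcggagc
For Apoe the start site is the one farthest upstream among its 3 RefSeq windows, and for Vldlr it is the one at the gene's start in the count table. The motifs were the GC box GGGCGG, the CCAAT box CCAAT, the TATA box TATAAA, the E-box CACGTG, the nuclear receptor half-site AGGTCA and its DR4 repeat. The GC box, found in 32.7% of 32851 promoter windows of this length, matched at 2 places in Abca1 and at 1 place each in Pltp and Vldlr. The CCAAT box, found in 33.8% of windows, matched at 1 place each in Lcat, Pltp and Vldlr. Abca1 alone of the 5 windows printed held the TATA box, which starts 29 bases before the start site and occurs in 12.4% of windows, and the E-box, which occurs in 6.02%. The half-site occurs in 14% of all windows and the DR4 repeat in 0.0152%. Neither was in the 5 windows, and none of the 6 motifs was in that of Apoe. A second of the 3 RefSeq windows of Apoe, not printed, holds the TATA box at 2 places, 100 and 96 bases before its own start site. These are matches of letters and say nothing of binding.

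The libraries held between 4260949 and 26857866 counts, the fewest in whole tissue of mouse 210, and the next fewest were the negative and positive fractions of mouse 290 (8782235 and 11910851). All 10 genes passed the filter on low counts (above 20 throughout 1 or more of the compared groups) in all 9 comparisons. Astrocyte markers (8 genes) summed to 16120 to 23940 CPM (counts per 1000000 counts of the library) in the Aldh1l1-NuTRAP positive fractions and to 3048 to 3974 in the negative ones. Microglia markers (8 genes) summed to 2907 to 6893 CPM in the Cx3cr1-NuTRAP positive fractions, most in mouse 194, against 356.2 to 393.8 in their inputs. The Cx3cr1-NuTRAP positive fractions also held astrocyte markers at 2778 to 4309 CPM (input 4450 to 4823) and neuron markers at 5455 to 8415 (input 7543 to 7897). Oligodendrocyte markers were at 1261 to 3302 CPM in them (input 4270 to 4909), and markers of oligodendrocyte precursors at 46.1 to 80.39 (input 122.3 to 135.6). Border-associated macrophage markers were above input, at 65.1 to 199.9 CPM (input 9.29 to 15.37). At an adjusted p under 0.05, 5 of 5 of them were higher than input (median log2 fold change 3.13). Endothelial markers were at 88.04 to 184.5 CPM (input 95.38 to 112.3), with 3 of 6 higher and 0 lower (median 0.41). Choroid plexus markers (6 genes, among them Ttr) were all higher in the Aldh1l1-NuTRAP positive fractions, at 2917 to 3377 CPM against 488.6 to 637.7 in the negative ones. Ependymal markers summed to 41.48 to 54.24 CPM against 17.65 to 30.19. Microglia markers were at 62.62 to 127.8 CPM in those positive fractions. The comparisons of the microglia pulldown share its libraries and are not independent of each other. In bulk samples, fewer cells of a type and less RNA per cell cannot be told apart.

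RNA of Apoe and Clu, the main particle proteins, was most abundant in the astrocyte pulldown. Apoe, Clu and Lcat were between 7 and 12 times higher in the Aldh1l1-NuTRAP positive than negative fraction, Abca1 and Pltp were about 3 times higher, and Abcg1 and Vldlr were lower. Of the 10 genes, 5 were higher and 2 lower at an adjusted p under 0.05, where 51.6% of the 13324 genes tested passed, 26.8% higher and 24.8% lower. Over all genes, the 3568 higher and 3304 lower calls fell to 1979 and 1687 without mouse 293 and to 1988 and 1600 without mouse 294, and were 4887 and 4845 without mouse 290. Fold changes and p-values are from the quasi-likelihood test of edgeR, which rescales the libraries (TMM). CPM values are counts over the library total and do not carry that rescaling, which in these fractions raises the positive side.

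Apoe, the main apolipoprotein of brain particles, stood at 13080, 9134 and 8991 CPM in the positive fractions of mice 290, 293 and 294, and at 2785, 1458 and 1214 in their negative fractions. It ranked between 1 and 4 among all genes of the positive libraries. All 3 positive values lay far above all 3 negative ones, and the log2 fold change was 2.86 (SE 0.36, adjusted p = 0.000644), or 7.24-fold. Clu was at 4934, 4132 and 3657 CPM in the positive and at 952.7, 644.8 and 599.1 in the negative fractions. Its log2 fold change was 2.88 (SE 0.25, adjusted p = 0.00013), close to that of Apoe. Apod went the other way, with 155.1, 55.81 and 59.12 CPM in the positive and 342.6, 185.5 and 183.6 in the negative fractions. Mouse 290 had the highest Apod in both fractions. The log2 fold change of -1.05 (SE 0.47, adjusted p = 0.0968) did not pass the threshold, whereas with the mouse as a block it was -1.16 (adjusted p = 1.29e-05) and without mouse 290 it was -1.37 (adjusted p = 3.68e-07). DESeq2 (adjusted p = 0.0398) and a fit of all groups together (adjusted p = 0.00702) also called Apod lower.

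Lcat, which acts on the secreted particle, had the largest fold change of the 10. It was at 205.2, 201.5 and 261.3 CPM in the positive and at 24.71, 20.41 and 25.65 in the negative fractions, a log2 fold change of 3.58 (SE 0.19, adjusted p = 3.66e-05) or 12.0-fold. Pltp was at 116.7, 101.1 and 156.1 CPM against 60.58, 52.71 and 48.72, with a log2 fold change of 1.55 (SE 0.20, adjusted p = 0.000764). The groups did not overlap for either gene.

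The exporters split. Abca1 was at 65.99, 90.48 and 81.4 CPM in the positive and at 36.32, 36.48 and 32.21 in the negative fractions, a log2 fold change of 1.52 (SE 0.17, adjusted p = 0.00033). Abcg1 was at 16.71, 20.95 and 21.25 CPM against 69.69, 80.99 and 93.26, so it fell by 1.70 on the log2 scale (SE 0.17, adjusted p = 0.000228), or 3.25-fold. These transporters act on the same particles and moved in opposite directions in all 3 mice. Abca7 was at 18.05, 21.24 and 22.95 CPM in the positive and 32.34, 29.64 and 30.17 in the negative fractions. Its CPM values did not overlap, but its log2 fold change after rescaling was -0.22 (SE 0.16, adjusted p = 0.28), against -0.56 (adjusted p = 0.0212) with scaling by total counts alone.

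Of the receptors, Vldlr was lower, at 21.07, 44.43 and 41.28 CPM in the positive against 75.27, 89.59 and 105.7 in the negative fractions. The difference was -0.996 on the log2 scale (SE 0.28, adjusted p = 0.0201), and the call was lost without mouse 293 (adjusted p = 0.0564) or without mouse 294 (adjusted p = 0.0957). Lrp1 was at 378.5, 667.1 and 546.4 CPM against 354.7, 487.7 and 488.3, and it was the only one of the 10 whose CPM ranges overlapped (63% of all tested genes had ranges apart). Its log2 fold change was 0.60 (SE 0.23, adjusted p = 0.0588), was positive in 3 of 3 mice, and passed with the mouse as a block (0.58, adjusted p = 0.000864) and without mouse 290 (0.63, adjusted p = 0.000319), as well as with DESeq2 (adjusted p = 0.0451) and all groups together (adjusted p = 0.0102). The choroid plexus and ependymal markers given above moved with the genes that rose here. Neuron markers (8 genes) moved with those that were lower, at 1616 to 2165 CPM in the positive against 7138 to 8340 in the negative fractions, with 8 of 8 called lower (median log2 fold change -1.63). So did oligodendrocyte markers, at 788.3 to 907 against 5690 to 7007 CPM, with 8 of 8 called lower (median -2.90). Markers of microglia (8 of 8, median -2.35), oligodendrocyte precursors (3 of 4, median -1.83) and erythrocytes (3 of 3 tested, median -2.02) were called lower as well. The part of these markers' cells in the results was not tested.

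**Figure D1:**
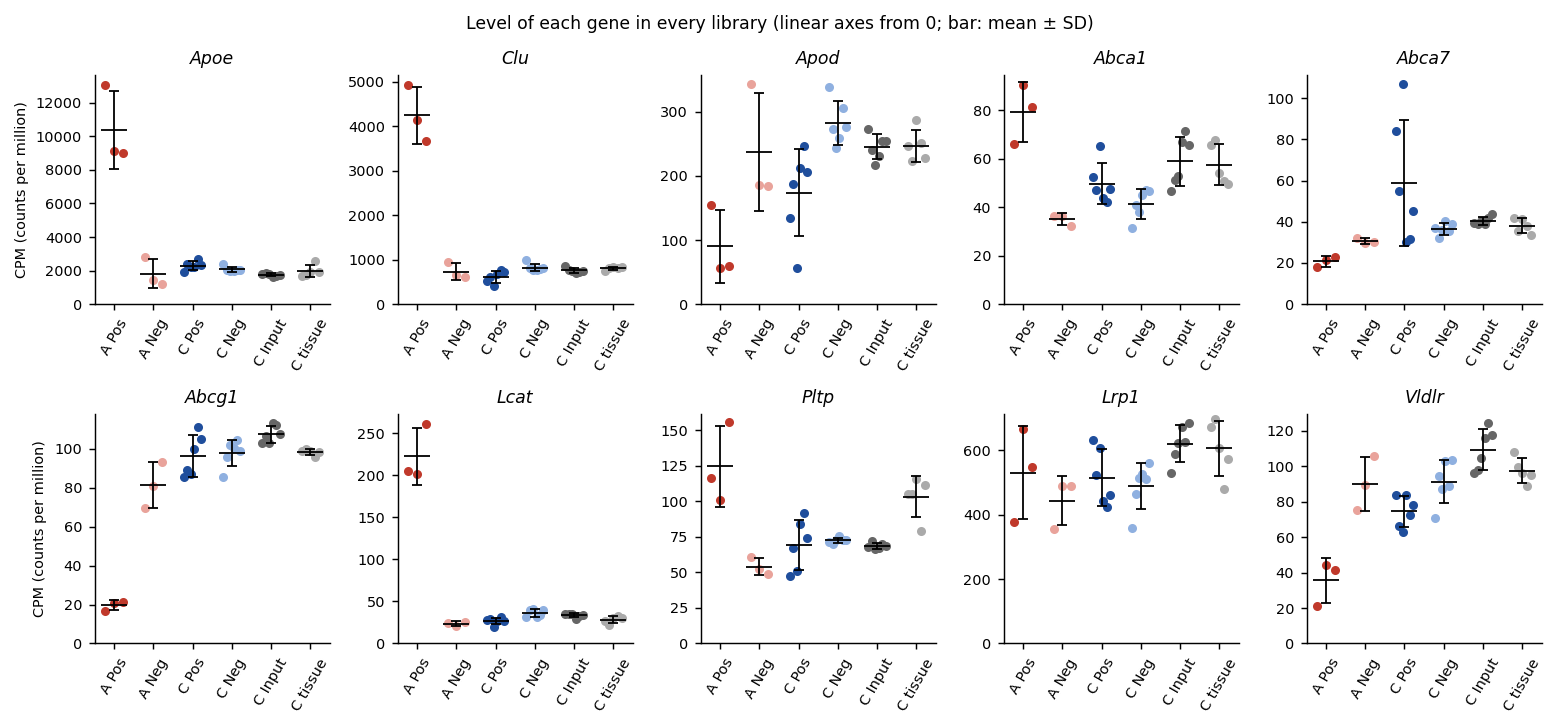
Level of each of the 10 genes in CPM (linear axes from 0) in every library of the Aldh1l1-NuTRAP positive and negative fractions (A Pos, A Neg) and the Cx3cr1-NuTRAP positive and negative fractions, input and whole tissue (C Pos, C Neg, C Input, C tissue), with mean ± SD in black. Apoe, Clu and Lcat stand apart in A Pos, Abcg1 and Vldlr are lowest there, and Abca7 spreads from 30.26 to 107.1 CPM in C Pos.

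In the microglia pulldown the same genes moved little. Against input, Apoe was 1.32-fold higher in the Cx3cr1-NuTRAP positive fraction, Vldlr, Clu and Lcat were lower, and the other 6 did not pass. That is 1 gene higher and 3 lower, where 48.9% of 13840 genes tested passed, 23.2% higher and 25.6% lower. CPM ranges were apart for Apoe and Vldlr, and for 25.3% of all genes. Against the negative fraction 0 of the 10 were higher and Clu and Lcat were lower, where 24.3% of 13777 genes passed, 12.8% higher and 11.6% lower. The 1759 higher and 1592 lower calls over all genes fell to 1177 and 570 without mouse 192, to 1151 and 867 without mouse 194 and to 1373 and 867 without mouse 277, and were 2090 and 2183 without mouse 155. Clu and Lcat were also the genes with ranges apart there, as were 13.1% of all genes. At an unadjusted p under 0.05, as for 5180 of the 13777 genes in either direction, Abca1 and Abca7 were higher there and Apod and Vldlr lower besides Clu and Lcat. DESeq2 called 1 of the 10 higher, Abca7. Against whole tissue 0 were higher and 3 lower, Clu, Pltp and Vldlr, where 51.8% of 13474 genes passed, 27.5% higher and 24.4% lower. The 3704 higher and 3282 lower calls over all genes became 2342 and 3188 without mouse 194 and 2431 and 3288 with the mouse as a block. Ranges were apart for Vldlr and for 28.6% of all genes. In that comparison Apoe and Abca7 were higher at an unadjusted p under 0.05 (as for 7798 genes in either direction), and DESeq2 called neither.

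Apoe ran from 1934 to 2694 CPM in the 6 positive fractions (median 2269) and from 1637 to 1885 in the inputs (median 1752). The ranges did not overlap and the value rose in 6 of 6 mice, with a log2 fold change of 0.40 (SE 0.07, adjusted p = 0.000583). Against the negative fractions (1958 to 2389, median 2026) it was 0.17 (SE 0.08, adjusted p = 0.152), higher in 5 of 6 mice. Mouse 155 was the exception, with 1934 CPM in the positive and 2389 in the negative fraction, and without it the value was 0.26 (adjusted p = 0.0155).

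Clu ran from 414.9 to 756.3 CPM in the positive fractions (median 643.2), from 708.2 to 856.5 in the inputs (median 754.1) and from 761 to 984.8 in the negative fractions (median 803). Its log2 fold change was -0.30 against input (SE 0.12, adjusted p = 0.048) and -0.40 against the negative fraction (SE 0.13, adjusted p = 0.0345). With the mouse as a block neither passed (adjusted p = 0.0651 and 0.0601). The call against input was also lost with RLE scaling (adjusted p = 0.0566), total counts alone (0.0533) and all groups in one fit (0.0659). Against input the call was also lost without any 1 of mice 155, 192, 194, 209 and 277 (adjusted p from 0.0567 to 0.16), and against the negative fraction without any 1 of mice 155, 192, 194 and 277 (0.0523 to 0.118). Apod ran from 56.75 to 247.3 CPM in the positive fractions (median 196.8) and from 217.7 to 272.4 in the inputs (median 247.8), and was lower than input in 6 of 6 mice. Its log2 fold change of -0.49 (SE 0.25, adjusted p = 0.125) did not pass. Against the negative fraction it was -0.68 (adjusted p = 0.0571), and -0.79 with the mouse as a block (adjusted p = 0.046). Without mouse 194 it was -0.54 (adjusted p = 0.0157), and DESeq2 (adjusted p = 0.0229) and all groups together (adjusted p = 0.0452) also called it lower. These Apod values were negative in 6 of 6 mice in both comparisons.

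Lcat ran from 19.66 to 31.22 CPM in the positive fractions (median 27.42) and from 29.23 to 35.24 in the inputs (median 34.12). It was lower than input in 6 of 6 mice, with a log2 fold change of -0.30 (SE 0.09, adjusted p = 0.0153), which was lost without mouse 192 (adjusted p = 0.0618) or mouse 194 (adjusted p = 0.0638). Against the negative fraction (31.9 to 40.88, median 36.46) it was -0.41 (SE 0.11, adjusted p = 0.0139), and with the mouse as a block it did not pass (adjusted p = 0.0527). It was also lost there without mouse 192 (adjusted p = 0.067) or mouse 277 (adjusted p = 0.0567). Pltp ran from 47.2 to 91.77 CPM in the positive fractions (median 70.61) and from 66.54 to 72.14 in the inputs (median 68.17), and the means differed by 0.02 on the log2 scale (SE 0.13). The positive fractions spread on both sides of the narrow input range.

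Abca7 varied most between the mice. It was at 84.27, 55.02 and 107.1 CPM in the positive fractions of mice 155, 192 and 194, and at 30.26, 31.75 and 45.2 in those of mice 209, 210 and 277. The inputs lay between 38.71 and 43.79 CPM (median 39.88). Positive fractions of the former 3 mice were all above the inputs, those of mice 209 and 210 were below, and that of mouse 277 was above. The log2 fold change of 0.56 against input (SE 0.28, adjusted p = 0.111) did not pass, but did without mouse 209 (0.69, adjusted p = 0.0498) or mouse 210 (0.71, adjusted p = 0.0486). Against the negative fraction it was 0.72 (SE 0.27, adjusted p = 0.0664), and it passed without mouse 209 (adjusted p = 0.0335) or mouse 210 (adjusted p = 0.048). With all groups in one fit and all mice, Abca7 passed as higher than input (0.60, adjusted p = 0.0183). In that fit it also passed against the negative fraction (0.75, adjusted p = 0.007) and whole tissue (0.65, adjusted p = 0.0137). Abca1 ran from 42 to 65.16 CPM in the positive fractions (median 47.32), again highest in mouse 194, and from 46.5 to 71.23 in the inputs (median 59.11). The difference was -0.23 (SE 0.13, adjusted p = 0.16), and -0.33 without mouse 194 (adjusted p = 0.0417). Over all the settings tried, the Abca1 difference ran from -0.33 to 0.15. Abcg1 ran from 85.43 to 111.3 CPM in the positive fractions and from 102.9 to 113.2 in the inputs, a difference of -0.15 (SE 0.07, adjusted p = 0.0923). Abcg1 was lower than input in 6 of 6 mice, by little.

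Vldlr ran from 62.86 to 83.96 CPM in the positive fractions (median 75.3) and from 96 to 124.4 in the inputs (median 110.3). The ranges did not overlap, 6 of 6 mice were lower, and the log2 fold change was -0.54 (SE 0.09, adjusted p = 0.000333). Lrp1 ran from 424.2 to 631.2 CPM in the positive fractions (median 491.5) and from 528.5 to 685.5 in the inputs (median 624). Its log2 fold change was -0.25 (SE 0.12, adjusted p = 0.0847), and -0.37 without mouse 155 (adjusted p = 0.0126). With the exon length offset described further below, Lrp1 turned to 0.19 (adjusted p = 0.0226). Vldlr against the negative fraction was at -0.26 (adjusted p = 0.0746), and at -0.37 without mouse 155 (adjusted p = 0.007).

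Cell-type markers differed among these 6 pulldowns. Mouse 194 had the most microglia markers (6893 CPM) and border-associated macrophage markers (199.9 CPM, against 65.1 to 94.18 in the others). It also had the fewest markers of astrocytes (2778), oligodendrocytes (1261, against 2651 to 3302) and choroid plexus (222.5, against 512.9 to 1040). The same library had the lowest Clu, Apod, Lcat and Vldlr and the highest Abca7 and Abca1 of the 6. Lrp1, like Abca7, was apart between mice 155, 192 and 194 (521.7 to 631.2 CPM) and mice 209, 210 and 277 (424.2 to 461.4). Clu was lower in the former mice, at 414.9 to 614.1 against 672.2 to 756.3 CPM, and Apod at 56.75 to 187.8 against 205.8 to 247.3. So were Pltp, at 47.2 to 66.83 against 74.4 to 91.77 CPM, and Abcg1, at 85.43 to 89.04 against 99.94 to 111.3. Apoe, Abca1, Lcat and Vldlr overlapped between them. In the positive fractions of mice 155, 192 and 194, where Abca7 was highest, markers of several other cells summed to less than in those of mice 209, 210 and 277. Neuron markers were at 5829, 6413 and 5455 CPM in the former mice and at 8415, 7897 and 7563 in the latter. Astrocyte markers were at 3360, 3323 and 2778 CPM against 4133, 4309 and 4244, and choroid plexus markers at 512.9, 846.7 and 222.5 against 1027, 1040 and 912.3. The sums for endothelial cells, pericytes and smooth muscle, and erythrocytes were apart in the same way, at 88.04 to 112.8, 69.47 to 96.54 and 24.36 to 114.1 CPM against 173.9 to 184.5, 113.7 to 123.3 and 225.8 to 418.7. Border-associated macrophage markers were apart in the opposite direction, at 94.18, 86.46 and 199.9 CPM in mice 155, 192 and 194 against 65.1, 76.03 and 85.04 in mice 209, 210 and 277. Microglia and oligodendrocyte markers overlapped between these mice. The part of the other cells' RNA in the values of this fraction was not tested.

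**Figure D2:**
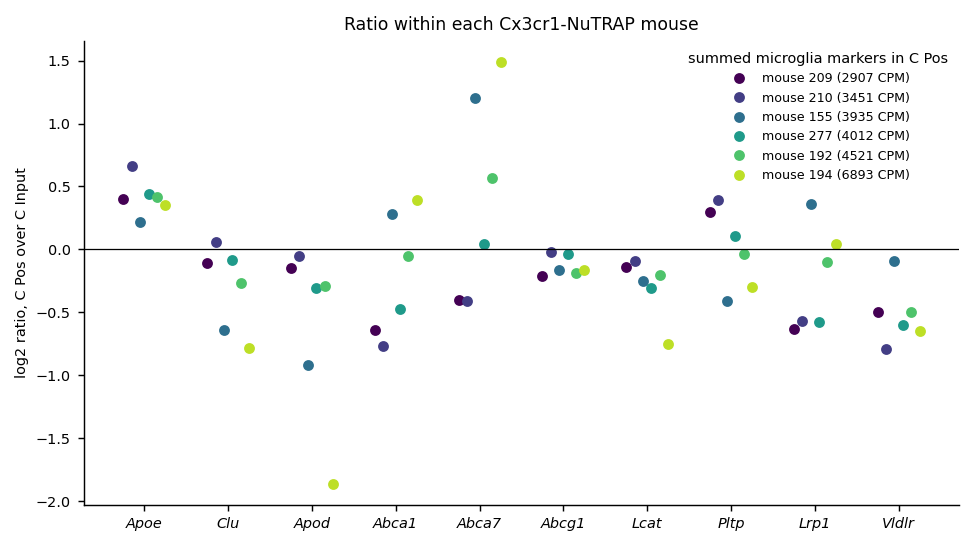
Log2 ratio of the Cx3cr1-NuTRAP positive fraction over input within each of the 6 mice, from TMM-scaled log2 CPM, for each gene, with points coloured by the summed CPM of 8 microglia markers in that positive fraction. Apoe lies above 0 in all 6 mice, and mouse 194 is at 1.49 for Abca7 and -1.86 for Apod.

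Against whole tissue of the same line, Pltp had the largest difference of the 3 genes that passed. It ran from 79.09 to 115.7 CPM in whole tissue (median 104.8), and the positive fraction was lower by 0.56 on the log2 scale (SE 0.16, adjusted p = 0.00876). Input was lower than whole tissue by nearly the same amount (-0.60, SE 0.08, adjusted p = 0.000103, 5 of 5 mice), and that was the only call among the 10 between input and tissue (30.4% of 13610 genes passed, 16.3% higher and 14.2% lower, and 14% had ranges apart, among them Pltp and Abcg1). Over all genes, the 2216 higher and 1927 lower calls fell to 1408 and 1221 without mouse 192, to 1366 and 1203 without mouse 194 and to 1324 and 1265 without mouse 209, and were 2697 and 2698 without mouse 210. Markers of endothelial cells were also lower in input than in tissue, at 95.38 to 112.3 against 154.4 to 288.7 CPM (6 of 6 called lower, median log2 fold change -1.33). So were those of pericytes and smooth muscle (117.7 to 130.4 against 130.3 to 178.9 CPM, 4 of 5 tested called lower) and of oligodendrocytes (4270 to 4909 against 6056 to 8255 CPM, 7 of 8 called lower). Astrocyte markers (4450 to 4823 against 4838 to 5283 CPM, 3 of 8 called lower) and ependymal markers (2 of 2 tested) were lower too. Markers of meningeal fibroblasts went the other way, at 220.5 to 278.5 against 124.9 to 209.6 CPM (3 of 6 called higher). Of the choroid plexus markers 2 of 6 were called higher, and of the neuron markers 4 of 8 higher and 1 lower. The part of these cells in the Pltp result was not tested. Clu was lower in the positive fraction than in tissue by 0.38 (SE 0.12, adjusted p = 0.0208), a call lost without mouse 192 (adjusted p = 0.0589). Vldlr was lower by 0.37 (SE 0.09, adjusted p = 0.00506), a call lost with the exon length offset described below (-0.05, adjusted p = 0.62). With the mouse as a block, Abca1 (-0.28, adjusted p = 0.0497) and Lrp1 (-0.35, adjusted p = 0.0208) were also lower than in tissue. Neither direction was stable. Abca1 ran from -0.28 to 0.21 over all the settings tried, and Lrp1 was at 0.29 with the length offset (adjusted p = 0.0118). Apoe was 0.25 higher (SE 0.12, adjusted p = 0.0825), and 0.30 without mouse 210 (adjusted p = 0.0147), whose tissue library was the shallowest and had the highest Apoe of the 5. Apod passed without mouse 194 (-0.40, adjusted p = 0.0396). Between input and tissue, Clu and Abcg1 passed without mouse 155 (-0.13 and 0.14, adjusted p = 0.0439 and 0.0491) and Lcat without mouse 210 (0.29, adjusted p = 0.0293).

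Between the negative fraction and input of the Cx3cr1-NuTRAP mice, where 6.1% of 13749 genes passed, 1.4% higher and 4.7% lower, Apoe was higher (0.25, SE 0.06, adjusted p = 0.0346) with ranges apart, as in 3.78% of all genes. Abca1 (-0.51, SE 0.12, adjusted p = 0.0314) and Lrp1 (-0.34, SE 0.09, adjusted p = 0.0432) were lower. Each went the same way in 6 of 6 mice, and each lost the call without any 1 of mice 192, 194, 209, 210 and 277 (adjusted p from 0.0838 to 0.175). Over all genes, edgeR called 0 without mouse 192, 209, 210 or 277 (2752 to 3868 had an unadjusted p under 0.05), 3 without mouse 194, and 1774 higher and 2040 lower without mouse 155, against 193 and 646 with all mice. DESeq2 with all mice called 767 higher and 1290 lower. With the mouse as a block, 2432 genes were higher and 2684 lower of 13749. Among the 10 genes, Clu (0.11, adjusted p = 0.014) and Apod (0.21, adjusted p = 0.000808) were higher as well. Abcg1 (-0.13, adjusted p = 0.0147) and Vldlr (-0.26, adjusted p = 0.00132) were lower. Without mouse 155, Apod (0.18, adjusted p = 0.0183) and Vldlr (-0.23, adjusted p = 0.0124) passed with no block, as did Vldlr by DESeq2 with all mice (-0.25, adjusted p = 0.0457).

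**Figure D3:**
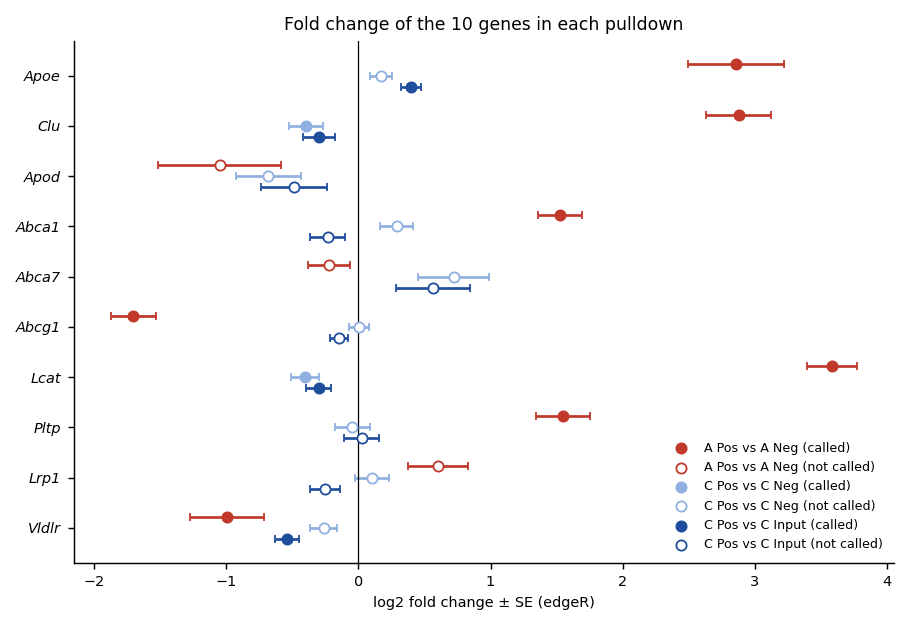
Log2 fold change ± SE from edgeR for the 10 genes in the Aldh1l1-NuTRAP positive against negative fraction (A Pos vs A Neg) and in the Cx3cr1-NuTRAP positive fraction against negative fraction and input (C Pos vs C Neg, C Pos vs C Input); filled points passed an adjusted p of 0.05. The astrocyte values run from -1.70 for Abcg1 to 3.58 for Lcat, and the microglia values stay between -0.68 and 0.72.

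The positive fractions of both lines differed in 8 of the 10 genes, 5 higher and 3 lower in the Aldh1l1-NuTRAP mice, where 63.8% of 13679 genes passed, 30.6% higher and 33.1% lower. The same 8 had CPM ranges apart, as did 60.4% of all genes. The log2 differences were 3.36 for Lcat (SE 0.14, adjusted p = 1.69e-08), 3.11 for Clu (SE 0.18) and 2.499 for Apoe (SE 0.15). They were 1.17 for Pltp (SE 0.20) and 0.98 for Abca1 (SE 0.16, adjusted p = 0.000339). Abcg1 was lower by 1.98 (SE 0.13), Abca7 by 1.21 (SE 0.41, adjusted p = 0.0238) and Vldlr by 0.76 (SE 0.21, adjusted p = 0.00832). The Abca7 call was lost without any 1 of the 3 Aldh1l1-NuTRAP mice (adjusted p from 0.0548 to 0.0988). Without mouse 290, Apod (-1.30, adjusted p = 0.039) and Lrp1 (0.52, adjusted p = 0.0385) passed too, as did Lrp1 with all groups in one fit (0.44, adjusted p = 0.0152).

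The change from negative to positive fraction also differed between the lines. Tested as an interaction over 13986 genes, of which 55.5% passed, 25.6% higher and 29.9% lower, the difference was 3.95 for Lcat (SE 0.19, adjusted p = 1.74e-11), 3.24 for Clu (SE 0.25) and 2.65 for Apoe (SE 0.29). It was 1.56 for Pltp (SE 0.24) and 1.19 for Abca1 (SE 0.22, adjusted p = 0.00015). Abcg1 (-1.75, SE 0.15) and Vldlr (-0.78, SE 0.25, adjusted p = 0.0137) were lower. Abca7 (-0.99, SE 0.44, adjusted p = 0.0618), Lrp1 (0.45) and Apod (-0.41) did not pass. Abca7 passed without mouse 209 (adjusted p = 0.0274) or mouse 210 (adjusted p = 0.0394), and Lrp1 without mouse 155 (0.60, adjusted p = 0.0394). With all groups in one fit both passed (Abca7 -0.92, adjusted p = 0.0291, and Lrp1 0.52, adjusted p = 0.0489), as did Abca7 under total counts alone (-1.25, adjusted p = 0.015). The negative fractions of both lines, where edgeR called 0.25% of 13616 genes, differed in 0 of the 10. Ranges were apart for Lcat and Pltp, and for 7.75% of all genes. At an unadjusted p under 0.05, as for 1828 of the 13616 genes in either direction, Abca7, Abcg1, Lcat and Pltp were lower in the Aldh1l1-NuTRAP mice. DESeq2, which called 257 genes higher and 264 lower of 13586, called Lcat (-0.59, adjusted p = 0.00172) and Pltp (-0.40, adjusted p = 0.00189). Without mouse 290 edgeR called Apoe (-0.63, adjusted p = 0.0395) and Pltp (-0.51, adjusted p = 0.0296). It then called 61 genes higher and 72 lower, against 17 and 17 with all mice and 0 and 0 without mouse 293 (1575 at an unadjusted p under 0.05). The counts were 41 and 44 without mouse 155 and 19 and 50 without mouse 294, and no more than 5 and 4 without any 1 of the other mice.

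The libraries also differed in the balance of long and short transcripts, which bears on this set because 5 of the genes have over 6500 bases of exon and 5 have under 2500. For each library the median deviation of genes with more than 6500 bases of exon, minus that of genes with fewer than 2500 bases, was taken on the log2 scale. It ran from 0.02 to 0.51 in the Cx3cr1-NuTRAP inputs, from -0.51 to 0.15 in their negative fractions and from -0.42 to 0.10 in their positive fractions. The positive fraction of mouse 290 stood lowest at -1.47, against -0.43 and -0.59 in mice 293 and 294, and its negative fraction at -0.53. Among the 3 astrocyte pulldowns all 5 genes over 6500 bases (Lrp1, Abca1, Vldlr, Abcg1 and Abca7) were lowest in mouse 290. Of the 5 under 2500 bases, Apoe, Clu and Apod were highest in it and Lcat and Pltp were not. Between negative fraction and input the median log2 change was 0.16 over genes under 2500 bases and -0.20 over genes over 6500 bases. Apoe rose and Abca1 and Lrp1 fell in that comparison.

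**Figure D4:**
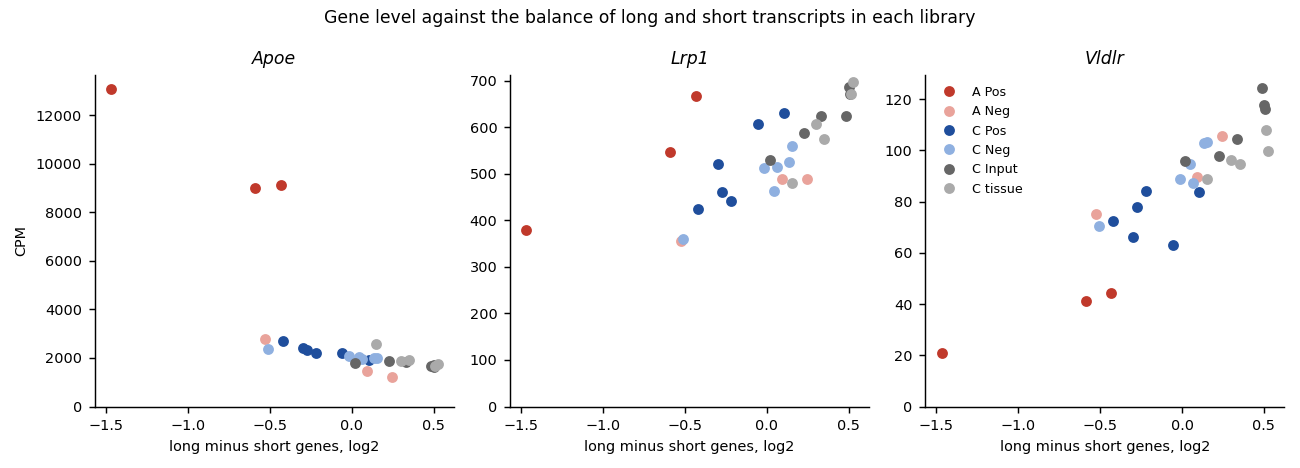
CPM of Apoe, Lrp1 and Vldlr in each of the 29 libraries (y axes from 0) against the library's balance of long and short genes (x axis, log2; genes over 6500 minus genes under 2500 bases of exon). Mouse 290's positive fraction lies at -1.47, and Lrp1 and Vldlr are lowest in it within A Pos.

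An offset for exon length, chosen after seeing the data, was therefore added to each fit. In the astrocyte pulldown it left the 7 calls as they were and added Lrp1, whose log2 fold change went from 0.60 to 1.33 (SE 0.13, adjusted p = 7.41e-05), and Apod (-1.34, adjusted p = 0.0149). With the offset Lrp1 also differed between the lines' positive fractions (1.10, adjusted p = 2.5e-06), and the interaction was 1.12 (adjusted p = 2.24e-07). In the same contrast of positive fractions Abca7 no longer passed (-0.87, adjusted p = 0.0513). In the microglia pulldown against input, Abca7 passed with the offset (0.82, adjusted p = 0.025, and 0.67 with the block as well, adjusted p = 0.0373). Lrp1 turned from -0.25 to 0.19 (adjusted p = 0.0226, and 0.0449 with the block). Against the negative fraction Abca1 (0.41, adjusted p = 0.00439), Abca7 (0.79, adjusted p = 0.0389), Lrp1 (0.23, adjusted p = 0.0183) and Apod (-0.73, adjusted p = 0.0351) passed with the offset. With the block as well, Abca1 (adjusted p = 0.0271) and Apod (adjusted p = 0.0274) did. Apod passed against input with both (-0.73, adjusted p = 0.0213). The Apoe call against input held with the offset and with both. Against whole tissue, the offset took away the Vldlr call (-0.05, adjusted p = 0.62) and turned Lrp1 (0.29, adjusted p = 0.0118) and Abcg1 (0.24, adjusted p = 0.0386). It added calls for Abca7 (0.88, adjusted p = 0.0226), Apod (-0.67, adjusted p = 0.0447) and Lcat (-0.32, adjusted p = 0.0273), of which Lcat also passed with the block (-0.37, adjusted p = 0.0154). Of the 3 calls between negative fraction and input, none passed with the offset alone (Apoe 0.11, Abca1 -0.27 and Lrp1 -0.07, adjusted p = 0.0888, 0.0518 and 0.347). The offset also removes any length difference that belongs to the cell types, and the origin of the length differences was not tested.

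Levels were compared between genes per kilobase of exon. In the Aldh1l1-NuTRAP positive fraction Apoe was at 5660 ± 1264 CPM per kb (SD, n = 3), Clu at 2343 ± 356.5, Lcat at 165.9 ± 25.0 and Pltp at 53.0 ± 12.1. Apod was at 43.4 ± 27.2, Lrp1 at 32.6 ± 8.89, Abca1 at 7.73 ± 1.21, Vldlr at 4.28 ± 1.53, Abca7 at 3.07 ± 0.37 and Abcg1 at 2.88 ± 0.37. In the Cx3cr1-NuTRAP input the order was Apoe at 956 ± 50.6 (n = 6), Clu at 421 ± 29.0, Apod at 118 ± 9.41, Lrp1 at 38.0 ± 3.51, Pltp at 29.2 ± 0.90 and Lcat at 25.0 ± 1.67. Abcg1 followed at 15.8 ± 0.64, then Vldlr at 13.2 ± 1.40, Abca7 at 6.00 ± 0.29 and Abca1 at 5.75 ± 0.99. Abcg1 was thus above Abca1 per kilobase in input and below it in the astrocyte pulldown. In the Cx3cr1-NuTRAP positive fraction Abca7 was at 8.73 ± 4.55 CPM per kb and Abca1 at 4.84 ± 0.82 (n = 6). The 10 genes together held 15770 ± 2813 CPM in the astrocyte pulldown, and 3547 to 4045 on average in the other 5 groups. Apoe was 65.7% of their counts there, 57.7% in the microglia pulldown and 46.2% in input.

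**Figure D5:**
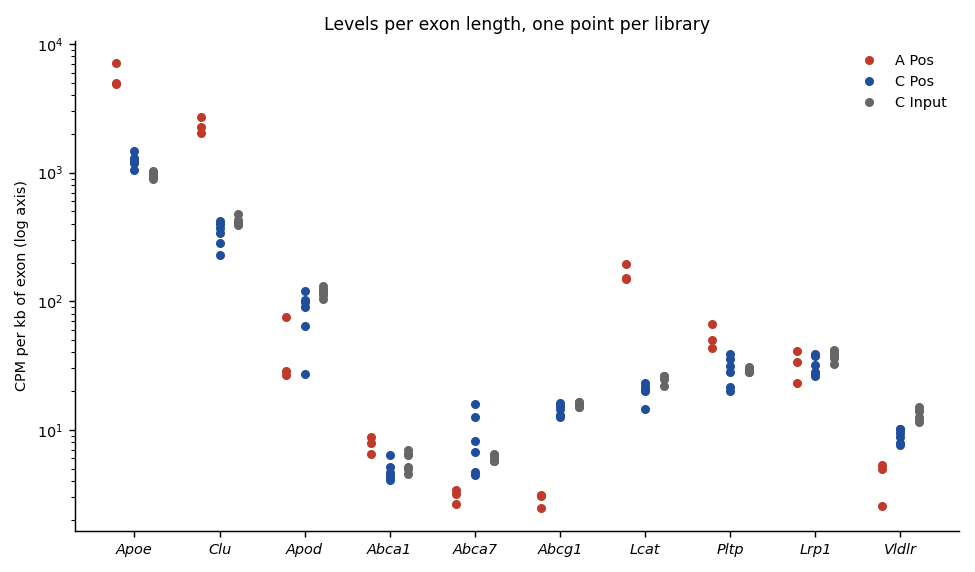
CPM per kilobase of exon (log axis) of the 10 genes, 1 point per library, in the Aldh1l1-NuTRAP positive fraction (A Pos), the Cx3cr1-NuTRAP positive fraction (C Pos) and input (C Input). Apoe and Clu are highest in all 3 groups, and Lcat is below Pltp in C Input and above it in A Pos.

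Ordered by mean CPM over the 6 groups, Apoe, Clu and Lcat were highest in the astrocyte pulldown with ranges apart from the next group, and the ranges of neighbouring groups overlapped from there down. Abca1 and Pltp were also highest there, but their ranges overlapped the next group, Cx3cr1-NuTRAP input for Abca1 and whole tissue for Pltp. Abcg1, Vldlr and Abca7 were lowest in the astrocyte pulldown with ranges apart from the group above. Abca7 had its highest mean in the microglia pulldown, where it overlapped input. Lrp1 and Vldlr had theirs in Cx3cr1-NuTRAP input, and Apod in the Cx3cr1-NuTRAP negative fraction, each overlapping the next group.

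Other genes of lipid transport were followed in lists written with earlier results of these data known. The shares over all genes to read them against are 26.8% higher and 24.8% lower in the astrocyte pulldown. Of 18 genes with apolipoprotein names 6 passed the filter on low counts, 4 of them through only the group where they were higher, so their count is no evidence on the list. Apoc1, which sits on Apoe-bearing particles, was higher by 4.19 (SE 0.60, adjusted p = 0.00111), Apoc3 by 3.49 (SE 1.05, adjusted p = 0.0266) at a mean of only 2.17 CPM, and Apol8 was lower (-1.65). These 3 are among those 4, with means of 1.10 and 0.343 CPM in the negative fraction for Apoc1 and Apoc3 and 0.971 CPM in the positive fraction for Apol8. Of 12 genes for liver X receptors, which switch on Abca1, Abcg1 and Apoe, and their partners, 7 were higher and 1 lower (median 0.81). Ppara, a fatty acid sensor, was higher by 3.00 (SE 0.31), Srebf1, a regulator of fatty acid synthesis, by 2.42 (SE 0.20) and Nr1h3, which encodes LXR alpha, by 1.80 (SE 0.34, adjusted p = 0.00392). Of 10 other lipid-exporting ABC transporters tested 1 was higher (Abca4, 1.27, which passed the filter only through the positive fraction) and 4 lower, among them Abca8b (-1.51) and Abca9 (-1.15). Of 19 other lipoprotein receptors and partners tested 5 were higher and 6 lower, led by Lrp5 (2.46), Lrp4 (2.35) and Trem2 (-2.56), a microglial lipid receptor. Of 15 genes for lipases, sterol esterification and egress 7 were higher and 3 lower, with Npc2, which moves cholesterol out of lysosomes, at 2.29, the lipase inhibitor Angptl4 at 2.15 and the triglyceride lipase Pnpla2 at 2.01.

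In the microglia pulldown against input, where 23.2% and 25.6% of all genes were higher and lower, 4 genes with apolipoprotein names were tested. Apobr, a receptor for apolipoprotein B, was higher (2.16, SE 0.21) and passed the filter only through the positive fraction (6.02 against 1.35 CPM). Apool, a mitochondrial inner membrane protein despite its name, was higher by 0.51. Of 21 receptors and partners tested 7 were higher and 11 lower. Trem2 rose by 3.76 (SE 0.19, adjusted p = 1.55e-08) and the fatty acid and lipoprotein receptor Cd36 by 1.74 (SE 0.28). The scavenger receptor Msr1 (2.86, SE 0.33) was tested only because of its positive fraction, at 2.83 CPM against 0.39 in input. Of 11 other ABC transporters tested 2 were higher and 7 lower. Abca9 rose from 11.0 to 42.0 CPM (1.95, SE 0.18), and Abca6 (-0.92, past the filter only in input) and Abca8a (-0.91) fell. Npc2 rose by 1.19 (SE 0.09), and 6 of 15 genes of the lipase and egress list were higher and 6 lower, Lipg (-0.77) and Nceh1 (-0.63) most. Of the 12 liver X receptor genes and partners 5 were higher and 5 lower, with Ncor1 at 1.15, Ppara at -0.62 and Srebf2 at -0.53. The medians of the 4 lists other than the apolipoproteins lay between -0.33 and 0.08, against -0.00 over all genes tested.

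The genes most like each member across the 29 libraries were found by Pearson's r of log2 CPM over 14114 genes. The libraries share mice, and the 3 astrocyte pulldowns stand apart in most of these genes, so r is a description only. Clu went with Cpe and Ndrg2 (r of 0.995 and 0.992), Lcat with Lgi4, Gstm1 and Cdc42ep4 (0.985 to 0.990) and Apoe with Pccb, Cd63 and Mdk (0.985 to 0.989). Abcg1 went with Clvs1, Slc6a15 and Atcay (0.965 to 0.980) and Vldlr with Etnk1, Snx30 and Atp2b2 (0.963 to 0.972). Pltp went with Vapb, Ptrf and Sdha (0.936 each) and Abca1 with Prkd3, Sh3glb1 and Zfp687 (0.900 to 0.927). Abca7 went with Son, Neurl4 and Cpsf1 (0.913 to 0.925), Apod with Cdc42ep2, Fth1 and Klk6 (0.897 to 0.920) and Lrp1 with Dmd and Gclc (0.907 and 0.894).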

How the data were processed

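RNA of the TRAP fractions and tissue was sequenced as strand-specific polyA libraries. Per the study's methods, adapters and read ends were removed and the alignment to mm10 was made in Strand NGS with strand taken into account. The authors' raw values are deposited by gene, as estimated counts (expected counts, which need not be whole). Of the nonzero values 82.4% were not whole (tolerance 1e-06), and all were rounded before testing. The deposited log2 values, made by the authors with DESeq normalization, were not used. Of 36172 rows, 14166 were 0 in every library after rounding, and 0 columns were left without a sample. Libraries were assigned to fraction and mouse by their labels.

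Genes were tested if some group in the fit had over 20 counts in each of its libraries. The test was that of edgeR 4.0.16 (R 4.3.3; TMM scaling, robust quasi-likelihood test, two-sided, Benjamini-Hochberg adjustment over all genes tested, threshold 0.05), with only the compared groups in the fit and no block by mouse, as the methods name no pairing for tests of these data. CPM is the count over the library total, times 1000000. Shallow libraries give less precise values, and replicate mice are the only basis of the errors. Mouse numbers mark the same animal in the labels and so pair the libraries. Same-mouse deviations from group means correlated above 0.1 over genes for 3 of 3 Aldh1l1-NuTRAP mice. In the Cx3cr1-NuTRAP mice this held for 5 of 6 between negative fraction and input, for 3 of 6 when the positive fraction was one of the pair, and for 0 of 5 with tissue. Alternatives were RLE scaling, total counts alone, DESeq2 1.42.0, no filter on low counts, all groups in one fit, each mouse left out, the mouse as a block and, added later, an exon length offset (lowess, span 0.3; 94% of genes tested had a length). The fits were tested on simulated counts with known changes. Log2 CPM for correlations and for the balance of long and short genes used a prior count of 2. The ratios within mice used no prior count. Exon lengths are from GENCODE vM21 and promoters from RefSeq on GRCm38.p6. Figures used Python 3.11.15 and matplotlib 3.10.9.

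The members, marker lists and pathway lists were chosen with earlier results of these data known. Named list genes are the 3 with the largest change among those called, per list and comparison, and the 3 genes of highest r per member. Some genes that this rule selects are not reported here.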

Additional observations from a re-analysis of the deposited data

Results flagged for a closer look

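In groups of 4 to 10 libraries, 5 of 40 gene and group pairs had a highest or lowest library far from the others by Dixon's criterion, where chance gives about 1 in 20. Apoe (2389 CPM) and Clu (984.8 CPM) were highest in the negative fraction of mouse 155, the library with the lowest balance of long to short genes (-0.51) of the 6. Apoe was highest in whole tissue of mouse 210 (2571 CPM), the shallowest library and the lowest in that balance (0.15) of the 5 tissue libraries. Lcat was lowest in the positive fraction of mouse 194 (19.66 CPM), which held the fewest astrocyte markers of the 6. Lcat was also lowest in the input of mouse 209 (29.23 CPM). The part of these measures in the flagged values was not tested.

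The log2 change from negative to positive fraction differed between the lines in 7 of the 10 genes by edgeR's interaction test, in which 55.5% of 13986 genes passed. It was greater in the Aldh1l1-NuTRAP mice by 2.65 for Apoe, 3.24 for Clu, 1.19 for Abca1, 3.95 for Lcat and 1.56 for Pltp, and lower for Abcg1 (-1.75) and Vldlr (-0.78). Within mice, the ratio was positive in 3 of 3 Aldh1l1-NuTRAP mice for the 5 that were greater and negative in 3 of 3 for Abcg1 and Vldlr. Line and cell type cannot be told apart.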

How the results depend on the processing

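Values are counts among the 10 genes, then single genes. The 5 higher calls of the Aldh1l1-NuTRAP positive against negative fraction held under RLE scaling, total counts, DESeq2, no filter, all groups in one fit, the block and the length offset, and DESeq2 and all groups gave 6 higher and 3 lower (Lrp1 and Apod added). Total counts alone moved the median of all genes by -0.346 there (3568 higher and 3304 lower became 2438 and 4818) and gave 4 genes lower in place of 2. It moved that median by -0.309 between the positive fractions (4188 and 4533 became 2879 and 6309) and by -0.274 in the interaction (3576 and 4182 became 2604 and 5712). It changed the microglia positive against negative fraction from 1759 and 1592 to 1649 and 1834. Other counts over all genes moved by over 1.5 times. Negative fraction against input (193 and 646) became 767 and 1290 with DESeq2, 51 and 221 with no filter, 0 and 59 with all groups (edgeR, 1986 at an unadjusted p under 0.05), 100 and 234 with the offset and 1126 and 1126 with block plus offset. The negative fractions (17 and 17) became 8 and 20 with total counts, 257 and 264 with DESeq2, 6 and 8 with no filter and 72 and 76 with the offset. Input against tissue (2216 and 1927) became 1168 and 1285 with all groups. The microglia positive fraction against tissue (3704 and 3282) became 2431 and 3288 with the block and 2231 and 2143 with block plus offset, and against input its lower genes went from 3548 to 2311 with block plus offset.

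For the Cx3cr1-NuTRAP positive fraction against input, higher genes went from 1 to 2 with all groups in one fit and to 3 with the length offset, alone or with the replicate block. Against the negative fraction, higher genes went from 0 to 1 with DESeq2, all groups or block plus offset and to 3 with the offset, and lower genes from 2 to 1 with the block and to 3 with DESeq2, all groups or the offset. Against whole tissue, higher genes went from 0 to 1 with all groups or block plus offset and to 3 with the offset, and lower genes from 3 to 5 with the block and to 4 with the offset (Vldlr lost, Apod and Lcat added). For negative fraction against input, 1 higher and 2 lower became 0 and 0 with all groups or the offset, 3 and 4 with the block (which called 2432 higher and 2684 lower of 13749 genes, against 193 and 646), and 2 and 1 with block plus offset, and lower genes became 1 with no filter. For input against tissue, higher genes went from 0 to 1 with DESeq2 or no filter, to 4 with the offset and to 2 with block plus offset. Between the negative fractions, lower genes went from 0 to 2 with DESeq2 and to 1 with the offset. Under the offset, Lrp1 turned to 0.191 against input (0.188 with the block) and to 0.289 against whole tissue, where Abcg1 turned to 0.239 (0.277 with the block). The cause of these changes was not tested, and the offset left out the genes with no exon length.

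With each mouse left out, higher and lower genes ranged from 5 to 6 and 1 to 3 for the Aldh1l1-NuTRAP positive against negative fraction, 1 to 2 and 1 to 3 for the microglia positive fraction against input, 0 to 1 and 0 to 2 against the negative fraction, and 0 to 1 and 2 to 4 against tissue. They ranged from 0 to 2 and 0 to 3 for negative fraction against input, 0 to 1 and 1 to 2 for input against tissue, 5 to 6 and 2 to 3 between positive fractions, 0 and 0 to 2 between negative fractions, and 5 to 6 and 2 to 3 for the interaction. The replicate block changed no call of a member beyond those given in the report. Leaving out a mouse leaves 2 in the Aldh1l1-NuTRAP groups, and the shallowest library (4260949 counts) is one of tissue.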

Other observations

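The pathway lists were also set against the interaction test, where 25.6% of all genes had a higher and 29.9% a lower log2 ratio of positive to negative fraction in the astrocyte line than in the microglia line. Of the 12 liver X receptor genes and partners, 7 were higher and 0 lower, led by Ppara (3.34, SE 0.31), Srebf1 (2.75, SE 0.19) and Nr1h3 (1.55, SE 0.30), with a median of 0.56 against -0.11 over all genes. Of 15 lipase and egress genes 6 were higher and 2 lower (median 0.05), with Angptl4 at 2.71, Pnpla2 at 1.60 and Soat1, which esterifies cholesterol inside cells, at 1.57. Of 21 receptors and partners tested, 6 were higher and 10 lower, and of the 18 past the filter in every group 6 were higher and 7 lower. Trem2 was at -6.24 (SE 0.58). Msr1 (-4.17, SE 0.87) and Cd36 (-3.43, SE 0.55) passed the filter only in the microglia line. Among 11 ABC transporters 1 was higher and 6 lower, with Abca9 at -3.82 (SE 0.36), Abca8b at -1.35 and Abca4, which did not pass the filter in the astrocyte negative fraction, at 1.77. Of genes with apolipoprotein names, Apoc3 (4.05, SE 1.14) and Apoc1 (3.98, SE 0.70) passed the filter only through the astrocyte positive fraction. Apol8 was at -1.44, falling from 3.89 to 0.971 CPM in the astrocyte line beside 5.45 and 4.48 CPM in the microglia line.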
